A study of Mus musculus with 14 samples.

Results

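The genes described here are 10 transcription factors and stress effectors of the ATF4 arm of the integrated stress response: Atf4, Atf5, Atf3, Ddit3, Cebpb, Nupr1, Trib3, Chac1, Sesn2 and Stc2. They were chosen by pathway, from general knowledge and with earlier results of these arrays known, and every probe annotated to one of their symbols was taken. This gave 10 of the 16593 genes with an annotated probe and 12 of the 25697 probes on the array, with 2 probes each for Ddit3 and Sesn2 and 1 for each of the other genes. Because those results were known, the levels and differences of the 10 genes are a description and no p is printed for them. Counts of genes past a threshold stand beside the share of all units, except under some alternative settings, and support nothing.

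Total RNA was hybridised to 14 single-colour Illumina mouse bead arrays in 5 groups. The group named HTF/MultiBlast (3 arrays) is described as mouse multiblastocysts in HTF, human tubal fluid medium. The ISM1/ISM2 group (3 arrays) consists of blastocysts cultured in media with those names, and the KSOM(aa) group (2 arrays) of blastocysts in KSOM, a standard mouse embryo culture medium, with amino acids. The oviduct group (3 arrays) and the micromanipulation control group (3 arrays) carry only those names. In the labels used here the medium of the HTF/MultiBlast group cannot be told apart from its different kind of embryo, no strain, age or number of pooled embryos is given for any group, and no allele or agent is named. The series text calls the replicates biological, whereas the label field of all 3 micromanipulation controls reads replicate 1, so each p-value measures the spread between the arrays as given.

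The integrated stress response begins when a kinase that senses amino acid shortage, misfolded protein, viral RNA or haem deficiency phosphorylates the initiation factor eIF2. General translation then slows while translation of the Atf4 mRNA increases, so that much of the control of ATF4 lies above the level of its transcript. ATF4 protein, a basic leucine zipper (bZIP) factor, pairs with factors such as C/EBPβ and activates genes for amino acid import and synthesis, for further transcription factors and for stress effectors that feed back on the pathway.

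Promoter sequence is given for 3 genes: Nupr1, since it held the only match among the 10 genes to the C/EBP-ATF response element, Chac1, since its groups lay far apart, and Atf4 itself. Each line holds the 250 bases before the start site, 5′ to 3′ on the strand of the gene, from RefSeq windows of mouse build GRCm38.p6. Capitals mark letters that matched a searched motif: the C/EBP-ATF response element TGATGNAAT, its core TGATGNAA, the cyclic AMP response element TGACGTCA or the CCAAT box, each on both strands. Where the element and its core overlap they share the same letters. The Nupr1 window is chr7:126625471-126625720 on the minus strand, the Chac1 window chr2:119350992-119351241 on the plus strand and the Atf4 window chr15:80254934-80255183 on the plus strand.
Nupr1: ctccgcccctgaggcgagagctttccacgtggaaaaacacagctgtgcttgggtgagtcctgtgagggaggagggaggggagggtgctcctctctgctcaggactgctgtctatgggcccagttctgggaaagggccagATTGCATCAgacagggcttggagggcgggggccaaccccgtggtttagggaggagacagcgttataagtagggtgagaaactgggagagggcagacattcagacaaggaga
Chac1: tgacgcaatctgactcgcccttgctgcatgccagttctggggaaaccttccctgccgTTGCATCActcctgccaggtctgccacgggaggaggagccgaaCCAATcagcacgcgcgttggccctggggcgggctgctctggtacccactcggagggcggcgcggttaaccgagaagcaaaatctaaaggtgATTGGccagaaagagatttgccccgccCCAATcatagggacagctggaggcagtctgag
Atf4: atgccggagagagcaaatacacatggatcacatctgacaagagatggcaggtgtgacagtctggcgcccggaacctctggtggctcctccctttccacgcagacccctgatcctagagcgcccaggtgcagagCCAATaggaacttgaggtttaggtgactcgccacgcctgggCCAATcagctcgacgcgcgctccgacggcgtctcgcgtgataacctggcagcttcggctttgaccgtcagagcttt

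The response element in Nupr1 lies on the opposite strand from -111 to -103 relative to the start site. Windows of 300 bases, with 50 bases after the start site, were present for all 10 genes and numbered 11, since Atf5 has 2. TGATGNAAT was found in 1 of these 11 windows and in 0.965% of all 32851 windows. The core was added to the search after the windows had been read; it occurred in the windows of 4 genes, Atf3, Trib3, Chac1 and Nupr1, and in 3.97% of all windows, and in Chac1 it lies from -193 to -186. The cyclic AMP response element was found in 0 of the 11 windows, against 1.79% of all windows. CCAAT was found in 7 of the 11 windows, against 37.4% of all windows, with 3 copies in Chac1 and 2 in Atf4. These matches describe letters in a window and show neither binding nor use of a site.

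Intensities were background corrected and quantile normalised, and all levels below are log2 intensities. A probe counted as detected on an array when its detection p was under 0.01, and the lowest level of a detected probe was between 5.08 and 5.69 across the 14 arrays. Probes detected on at least 2 arrays were tested, each gene by its brightest probe, which left 8669 tested units and 8 of the 10 genes. Median raw intensity was lowest on oviduct replicate 1 (96.6) and highest on oviduct replicate 2 (152), and 8533 to 10188 probes (33.2% to 39.6%) were detected per array. The KSOM(aa) pair stood apart, each array at a root mean square log2 distance of 0.809 from its own group, against 0.643 to 0.75 in the oviduct group and 0.345 to 0.582 in the remaining groups.

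The name oviduct was checked against marker genes. All 8 blastocyst markers (Cdx2, Gata3, Krt8, Pou5f1, Nanog, Sox17, Gata6 and Sox2) were detected on all 14 arrays, and of 5 markers of oviduct epithelium, including the oviduct glycoprotein gene Ovgp1, 0 were detected on any oviduct array. The measured RNA of the oviduct group therefore carried blastocyst transcripts, and it is treated here as the reference group under its label. Stromal markers (Dcn, Lum and Col3a1) and the 2 cumulus markers on the array (Has2 and Inhba) were detected on 0 of the 14 arrays. Foxj1, a marker of ciliated epithelium, was detected on 3 arrays outside the oviduct group. Acta2 was detected on 5 of the 14 arrays, among them oviduct replicates 2 and 3, Des on 12, among them oviduct replicate 2, and the macrophage marker Lyz2 on oviduct replicate 3 alone, at 8.37. The mean level of the blastocyst markers was 10.12 to 10.23 on the ISM1/ISM2 arrays and 10.4 to 10.81 on the other 11.

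**Figure D1:**
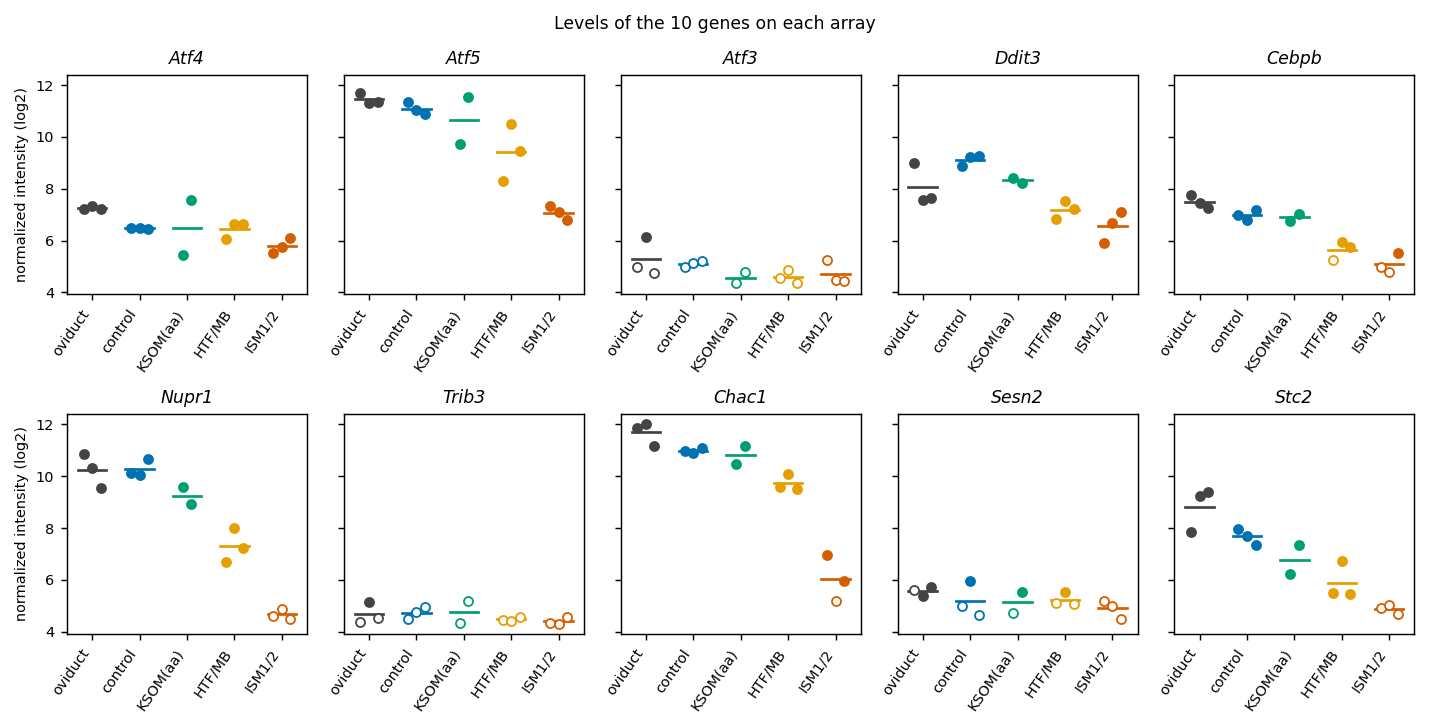
Normalised log2 intensity (y axis) of the 10 genes on each of the 14 arrays, by group (x axis; control, the micromanipulation control; HTF/MB, HTF/MultiBlast; ISM1/2, ISM1/ISM2). Filled points are arrays on which the probe was detected, open points arrays on which it was not, and bars are group means; Chac1, Nupr1 and Atf5 run from 11.69, 10.24 and 11.45 in the oviduct group down to 6.03, 4.67 and 7.08 in the ISM1/ISM2 group.

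Among the bZIP factors, Atf5 covered the widest range of group means. ATF5 is a bZIP factor whose mRNA, like that of Atf4, is translated preferentially under stress. Its level was 11.71, 11.3 and 11.33 on the oviduct arrays, 11.34, 11.04 and 10.88 on the control arrays and 9.74 and 11.54 on the KSOM(aa) arrays. In HTF/MultiBlast it was 8.31, 10.49 and 9.44, and in ISM1/ISM2 7.35, 7.1 and 6.78. All 3 ISM1/ISM2 arrays lay below every other array, the HTF/MultiBlast arrays lay below every oviduct and control array, and the KSOM(aa) arrays fell on either side of the highest HTF/MultiBlast array. The mean difference from oviduct was -4.37 ± 0.49 (SE; 20.7-fold lower) in ISM1/ISM2 and -2.03 ± 0.49 in HTF/MultiBlast. In bulk RNA, fewer cells of a type and less RNA per cell cannot be told apart, for this gene or any of those that follow.

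Atf4, the central factor of the pathway, differed less than Atf5 in measured mRNA level, on a dimmer probe. It measured 7.21, 7.35 and 7.23 on the oviduct arrays, 6.47, 6.48 and 6.46 on the control arrays and 5.44 and 7.55 on the KSOM(aa) arrays, the last 2 being the lowest and the highest of all 14. The HTF/MultiBlast arrays read 6.06, 6.66 and 6.64 and the ISM1/ISM2 arrays 5.51, 5.76 and 6.09. The 3 oviduct arrays lay above all control, HTF/MultiBlast and ISM1/ISM2 arrays. ISM1/ISM2 was lower than oviduct by a mean difference of -1.47 ± 0.39 (SE; 2.78-fold), whereas HTF/MultiBlast (-0.81 ± 0.39), the control (-0.79 ± 0.39) and KSOM(aa) (-0.77 ± 0.43) were close to one another. Between the means of KSOM(aa), control and HTF/MultiBlast (6.49, 6.47 and 6.45) no gap exceeded the replicate SD. The ISM1/ISM2 difference from oviduct was -1.07 with an offset of 50 and -1.77 in the authors' values. The lowest detected levels on the ISM1/ISM2 arrays were 5.37, 5.32 and 5.44, near these Atf4 levels. The oviduct means of Atf4 and Atf5 were 7.26 and 11.45, so the sizes of their differences cannot be compared directly.

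Ddit3 encodes CHOP, a bZIP factor induced through ATF4 and linked to cell death under prolonged stress. Here the control group was highest, at 8.88, 9.21 and 9.26, against 9, 7.56 and 7.65 in oviduct and 8.43 and 8.22 in KSOM(aa). HTF/MultiBlast read 6.83, 7.53 and 7.22 and ISM1/ISM2 5.91, 6.67 and 7.09. Oviduct replicate 1 lay among the control arrays and the other 2 oviduct arrays just above the HTF/MultiBlast range, which itself overlapped that of ISM1/ISM2. The mean difference from oviduct was -1.52 ± 0.37 (SE) in ISM1/ISM2, -0.88 ± 0.37 in HTF/MultiBlast, 0.25 ± 0.42 in KSOM(aa) and 1.05 ± 0.37 in the control. The second Ddit3 probe, detected on 12 of 14 arrays, gave -1.56, -1.09, 0.16 and 0.83 in the same order.

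Cebpb encodes C/EBPβ, a dimer partner of ATF4. On the oviduct arrays it read 7.76, 7.47 and 7.27, on the control arrays 6.98, 6.81 and 7.2 and on the KSOM(aa) arrays 6.75 and 7.04. In HTF/MultiBlast it read 5.25, 5.96 and 5.74, detected on 2 of 3 arrays, and in ISM1/ISM2 4.97, 4.78 and 5.51, detected on 1 of 3. The arrays thus formed a higher set of oviduct, control and KSOM(aa) and a lower set of HTF/MultiBlast and ISM1/ISM2, with the oviduct arrays on top and the lower 2 groups overlapping. The difference from oviduct was -1.85 ± 0.24 (SE) in HTF/MultiBlast. In ISM1/ISM2 it was -2.42 ± 0.24 but rests on 2 arrays below detection, and it was -1.66 with an offset of 50 and -3.17 in the authors' values.

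Nupr1, a small chromatin-associated stress protein, was below detection in ISM1/ISM2. Its level was 10.84, 10.33 and 9.56 on the oviduct arrays, 10.13, 10.03 and 10.68 on the control arrays, 9.58 and 8.92 on the KSOM(aa) arrays and 6.68, 8.02 and 7.25 on the HTF/MultiBlast arrays. On the ISM1/ISM2 arrays it read 4.62, 4.88 and 4.5 and was detected on 0 of 3. The groups formed 3 steps that did not overlap: oviduct, control and KSOM(aa) together, then HTF/MultiBlast, then ISM1/ISM2. Set against the lowest detected level of each ISM1/ISM2 array, Nupr1 was at least 29.1-fold lower there than in oviduct (measured means 4.67 and 10.24). HTF/MultiBlast was lower than oviduct by a mean difference of -2.93 ± 0.36 (SE; 7.6-fold), and the control differed from it by 0.04 ± 0.36.

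Atf3, a bZIP repressor induced by many stresses, was near background throughout. It was detected on oviduct replicate 2 alone, at 6.15, and read 4.35 to 5.26 on the other 13 arrays, so it was not tested. That array had the highest median intensity and the most detected probes of the 14, and Trib3 and 2 of the 3 smooth muscle markers (Acta2 and Des, both at 5.12; Myh11 was not detected) were detected on it as well. The mean level of the 3 smooth muscle markers was 4.76 to 4.87 on the oviduct arrays and 4.91 to 5.39 on the others. Their part in this reading was not tested.

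Among the effectors, Chac1 was far lower in ISM1/ISM2 than elsewhere. CHAC1 cleaves glutathione and is a well-known readout of ATF4 activity. Its level was 11.87, 12.02 and 11.17 on the oviduct arrays, 10.96, 10.88 and 11.07 on the control arrays, 10.48 and 11.18 on the KSOM(aa) arrays, 9.6, 10.08 and 9.49 on the HTF/MultiBlast arrays and 6.95, 5.19 and 5.94 on the ISM1/ISM2 arrays. The ISM1/ISM2 arrays lay more than 2 log2 units below any other array, with replicate 2 not detected. All HTF/MultiBlast arrays lay below all oviduct, control and KSOM(aa) arrays, and the control arrays lay just below the oviduct arrays. ISM1/ISM2 was 50.5-fold lower than oviduct (log2 difference -5.66 ± 0.38, SE), a difference of -5.03 with an offset of 50 and -6.29 in the authors' values, and HTF/MultiBlast was 3.91-fold lower (-1.97 ± 0.38). The gap between HTF/MultiBlast and ISM1/ISM2 was 3.69 ± 0.38 on the log2 scale.

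Stc2, a secreted glycoprotein induced by endoplasmic reticulum stress and hypoxia, was highest in oviduct and lowest in ISM1/ISM2. It measured 7.85, 9.22 and 9.41 on the oviduct arrays, 7.97, 7.7 and 7.36 on the control arrays, 6.21 and 7.34 on the KSOM(aa) arrays and 5.49, 6.74 and 5.44 on the HTF/MultiBlast arrays. On the ISM1/ISM2 arrays it read 4.91, 5.05 and 4.7 and was detected on 0 of 3. Neighbouring groups in this order overlapped at 2 of 4 steps, oviduct with control and KSOM(aa) with HTF/MultiBlast, and the gaps between the means of the 4 groups with detection exceeded the larger SD of each pair. The last step, from HTF/MultiBlast to ISM1/ISM2, is against undetected values and amounts to at least 1.43-fold. Stc2 was at least 10.9-fold lower in ISM1/ISM2 than in oviduct (measured means 4.88 and 8.83). The other differences from oviduct were -2.94 ± 0.44 in HTF/MultiBlast, -2.06 ± 0.49 in KSOM(aa) and -1.15 ± 0.44 in the control (SE).

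Sesn2 and Trib3 gave little signal. Sesn2, a leucine sensor that restrains the growth kinase complex mTORC1, was detected on 5 of 14 arrays by its brighter probe and on 0 by the other. It read 5.61, 5.38 and 5.71 on the oviduct arrays and 5.18, 5.01 and 4.51 on the ISM1/ISM2 arrays, where it was detected on 0 of 3. The 8 other arrays read 4.65 to 5.94, a range that overlapped both groups. Trib3, a pseudokinase that inhibits ATF4 and CHOP, was detected on oviduct replicate 2 alone, at 5.14, and read 4.31 to 5.19 on the other arrays. With both at the floor of the assay, no order of groups can be read for Trib3, and the ISM1/ISM2 difference of Sesn2 (-0.66 ± 0.32, SE) amounts to at least 1.14-fold.

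**Figure D2:**
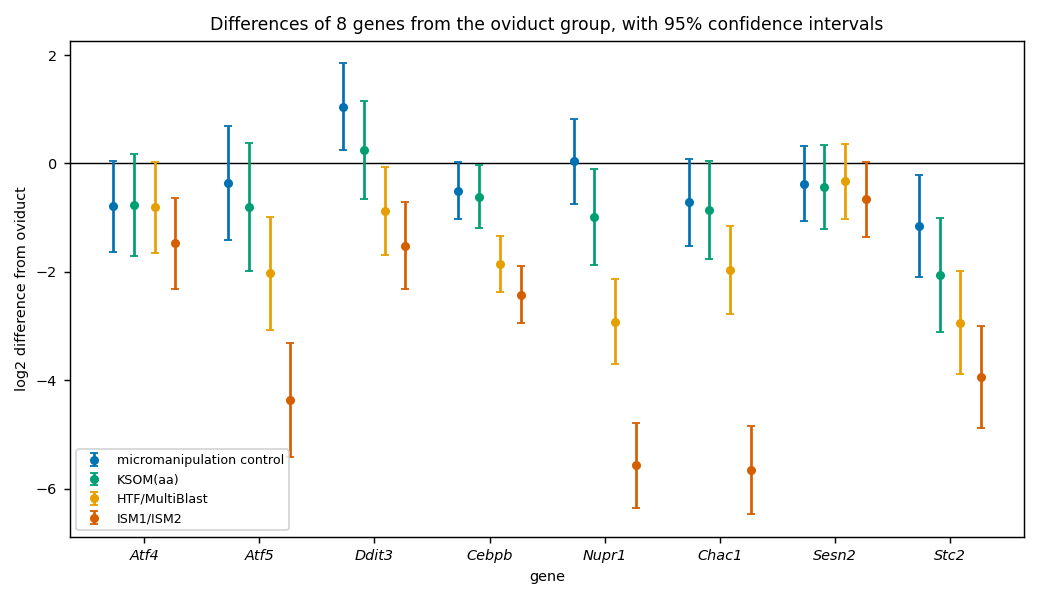
Log2 difference from the oviduct group (y axis) for the 8 tested genes (x axis) in each of the 4 other groups, with 95% confidence intervals from the fit over 5 groups. In ISM1/ISM2 the intervals of all but Sesn2 lie below 0. In the control the interval of Ddit3 lies above 0, at 0.24 to 1.85, and that of Stc2 below 0, at -2.1 to -0.21. The intervals are not adjusted for the number of units tested, and neither gene was called in the control.

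The same fit places the 10 genes against all units on the array. With Benjamini-Hochberg adjusted p under 0.05 in limma, 7 of the 8 tested genes were lower in ISM1/ISM2 than in oviduct and 0 higher, all except Sesn2. Among all 8669 units 11.5% were lower and 14.3% higher in that comparison. In HTF/MultiBlast against oviduct the count was 5 lower (Atf5, Chac1, Nupr1, Cebpb and Stc2) and 0 higher, with 2.68% of units lower and 3.51% higher. For KSOM(aa) against oviduct the count was 0, with 0.196% of units lower and 0.0577% higher, and for the control against oviduct it was 0, with 0.277% lower and 0.150% higher. At an unadjusted p under 0.05 these last 2 comparisons gave 3 and 2 of the 8 genes, and 1086 and 1476 of all units. Since the values of these comparisons were known when the genes were chosen, nothing is read from the counts.

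The median difference of the 8 genes was -3.18 in ISM1/ISM2, -1.91 in HTF/MultiBlast, -0.79 in KSOM(aa) and -0.44 in the control, where the median over all units was 0.02, 0.03, 0.01 and 0.03. Counted by arrays that did not overlap with oviduct, 8 of the 8 genes were lower in ISM1/ISM2 (17.8% of all units), 7 in HTF/MultiBlast (11.8%), 2 in KSOM(aa) (8.11%) and 3 in the control (11.3%). All 4 comparisons use the same 3 oviduct arrays, so they are not independent of one another. Leaving out ISM1/ISM2 replicate 1 ended the call of Atf4 in ISM1/ISM2, and a fit of only those 2 groups ended that of Ddit3. The call of Atf5 in HTF/MultiBlast was lost when oviduct replicate 1 or 3 or any HTF/MultiBlast replicate other than 2 was left out, without a detection filter and in a fit of only those 2 groups, while Atf4 was called as well when either KSOM(aa) array was left out. Without KSOM(aa) replicate 2, Atf4 and Stc2 were called lower in KSOM(aa), with 2 genes in place of 0, and Stc2 also without oviduct replicate 1. Without oviduct replicate 1, Ddit3 was called higher in the control.

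The 6 remaining comparisons set the other 4 groups against each other, and the counts are again a description. The oviduct arrays enter these comparisons only through the shared normalisation, detection filter, choice of probe and estimate of spread. ISM1/ISM2 was lower than KSOM(aa) for 6 of the 8 genes, with 5.32% of all units lower, and lower than the control for 6, with 7.71% of units lower. The difference from KSOM(aa) was -4.8 ± 0.42 for Chac1 and -3.56 ± 0.55 for Atf5 (SE), and Nupr1 was at least 14.7-fold lower than in KSOM(aa) and at least 30-fold lower than in the control. Atf4 and Sesn2 were the 2 genes without a call in both. Calls of Ddit3 and Stc2 against KSOM(aa) were lost without KSOM(aa) replicate 2 or without ISM1/ISM2 replicate 1, which left 4. Ddit3 also lost its call without KSOM(aa) replicate 1, where Atf4 gained one, and Stc2 without ISM1/ISM2 replicate 3. Of the alternatives that kept all arrays, an offset of 50, no detection filter and array weights each ended the call of Stc2, and a fit of only those 2 groups ended both. Atf4 was called lower than in the control, making 7, when either KSOM(aa) array was left out.

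HTF/MultiBlast stood above ISM1/ISM2 for 3 of the 8 genes, Chac1, Atf5 and Nupr1, with 3.36% of units higher. Atf5 was 2.34 ± 0.49 higher on the log2 scale and its call was lost without HTF/MultiBlast replicate 2, whereas Cebpb (0.56 ± 0.24) and Ddit3 (0.64 ± 0.37) overlapped between these groups. Against the control, HTF/MultiBlast was lower for 3 genes, Ddit3, Nupr1 and Cebpb, with 0.911% of units lower. Ddit3 differed from the control by -1.92 ± 0.37 and by the same -1.92 on its second probe. This count was 1 without control replicate 3 or HTF/MultiBlast replicate 1, and 5, with Atf5 and Stc2, without either KSOM(aa) array or without HTF/MultiBlast replicate 2. The call of Ddit3 was lost without control replicate 2 or 3 or HTF/MultiBlast replicate 1 or 3, and that of Stc2 was gained without oviduct replicate 1 or 3. Against KSOM(aa), HTF/MultiBlast had 0 calls among the 8 genes, with 0.0692% of units lower, and 5 of the 8 genes and 802 units at an unadjusted p under 0.05. Nupr1 was called there without oviduct replicate 3 or without HTF/MultiBlast replicate 2. KSOM(aa) against the control gave 0 calls among the 8 genes and 0% of all units, with 1 of the 8 genes and 426 units at an unadjusted p under 0.05; without KSOM(aa) replicate 1, 124 units were called. For Chac1 the interval of that last difference ran from -1.05 to 0.76.

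Within groups the 8 genes did not move as a block on every array. HTF/MultiBlast replicate 1 lay below its group mean for 8 of 8 genes (median deviation -0.4) and replicate 2 above it for 8 (median 0.35). KSOM(aa) replicate 1 was the lower of its pair for 6 of 8 genes, with Nupr1 and Ddit3 as the exceptions. For Ddit3 this depended on the probe, since its second probe read 6.96 on KSOM(aa) replicate 1 and 7.42 on replicate 2. On oviduct replicate 1, the dimmest array of the 14, Atf5, Ddit3, Cebpb and Nupr1 were the highest of their group while Atf4 and Stc2 were the lowest. The micromanipulation controls, the group with the smallest distances over the tested units (0.345 to 0.355), had an SD of 0.01 for Atf4 and 0.1 for Chac1, though 0.67 for Sesn2 (n = 3).

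**Figure D3:**
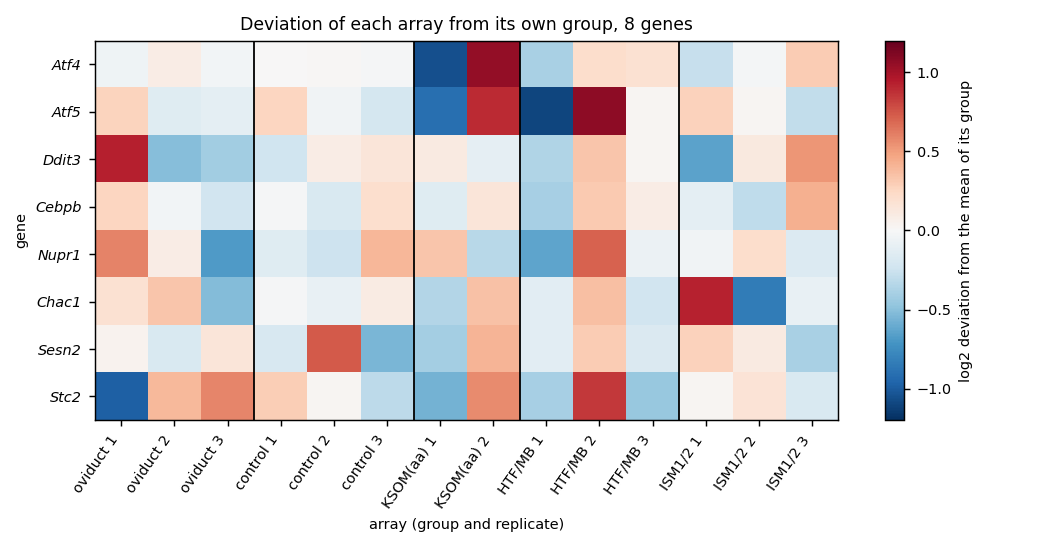
Deviation of each array (x axis, group and replicate, abbreviated as in the plot of levels) from the mean of its own group for the 8 tested genes (y axis), as log2 values in colour. HTF/MultiBlast replicate 1 is below and replicate 2 above its group mean in all 8 rows, and the KSOM(aa) pair is split most widely in Atf4 and Atf5.

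Over the 14 arrays most pairs of the 8 genes ran together. Pearson's r was 0.94 for Chac1 with Nupr1, for Atf5 with Chac1, for Atf5 with Nupr1 and for Nupr1 with Cebpb, and lowest for Ddit3 with Sesn2, at 0.18. These values describe 14 arrays in 5 groups, share the normalisation and include the differences between groups. After each group mean was subtracted, r was 0.2 for Chac1 with Nupr1 and 0.44 for Atf5 with Chac1. The highest values within groups were 0.7 for Atf4 with Atf5 and 0.62 for Ddit3 with Cebpb, and Ddit3 with Stc2 stood at -0.44. Atf4 and Atf5 both had their largest replicate SD in KSOM(aa), at 1.49 and 1.27 (n = 2). In the other groups their SD was at most 0.34 and 1.09. How far the value of 0.7 rests on the KSOM(aa) pair was not tested.

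Among the 8017 tested units with a symbol outside the 10 genes, the one most like each gene over the 14 arrays was found by Pearson's r. For Chac1 this was Herpud1, an endoplasmic reticulum protein degradation factor (r = 0.979), for Nupr1 the cytochrome P450 gene Cyp4f14 (0.979) and for Atf5 Dmrta2 (0.978). The remaining partners were Chd4 for Atf4 (0.957), Nostrin for Cebpb (0.965), Rab11fip5 for Stc2 (0.951), Gstk1 for Ddit3 (0.926) and Cdc25a for Sesn2 (0.837). The mean of the 8 genes, each standardised over the arrays, was most like Lars, the cytosolic leucyl-tRNA synthetase (0.987). It was followed by Hspg2, which encodes the basement membrane proteoglycan perlecan (0.982), Hbegf, a heparin-binding growth factor (0.97), the matrix protein gene Sparc (0.97) and Gramd4 (0.967). Hspg2 had a mean level of 8.65 ± 0.29 in oviduct and 5 ± 0.2 in ISM1/ISM2 (SD, n = 3), with HTF/MultiBlast at 6.47 ± 0.47 between them.

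The rest of the ATF4 pathway was taken from lists of 75 genes, of which 64 had a probe and 52 were tested. In ISM1/ISM2 against oviduct 33 of these 52 were lower and 1 higher at adjusted p under 0.05 in limma, against the 11.5% and 14.3% of all units given above. In HTF/MultiBlast 13 were lower and 0 higher, beside 2.68% and 3.51% of all units. In KSOM(aa) and in the control 0 of 52 passed in either direction. At an unadjusted p under 0.05 KSOM(aa) and the control gave 6 and 4 of the 52, and 1086 and 1476 of all 8669 units. The median difference of the 52 genes was -0.96, -0.63, -0.29 and -0.08 in these 4 comparisons. The lists were written with earlier results of these arrays known and are not independent evidence. The 33 include Junb and Eprs, which would not have passed the detection filter without the oviduct arrays, the group where they are high. The count in HTF/MultiBlast was 4 without its replicate 1 and 5 without its replicate 3, and the count in KSOM(aa) was 3 without its replicate 2 and 1 without oviduct replicate 1.

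Upstream of ATF4 stand the eIF2 kinases and the subunits of the eIF2 phosphatase. Of 6 tested genes of this list 1 was lower in ISM1/ISM2 and 0 higher, beside 11.5% and 14.3% of all units. At an unadjusted p under 0.05 the count was 3 of 6, beside 3289 of all 8669 units. The gene called lower was Ppp1r15a, the inducible phosphatase subunit GADD34 that ends the response (-0.8 ± 0.26, adjusted p = 0.0348 in limma). Eif2ak4, the kinase that senses amino acid shortage, was detected on too few arrays to be tested. The other bZIP factors had 4 of 9 tested genes lower in ISM1/ISM2 and 0 in HTF/MultiBlast, beside 11.5% and 2.68% of all units. The largest differences among them were those of Jdp2, a repressor of AP-1 sites (-2.17 ± 0.4, adjusted p = 0.00176), and Xbp1, the transcription factor of another arm of the unfolded protein response (-1.21 ± 0.22, adjusted p = 0.00165). Jdp2 read 5.98, 6.41 and 6.7 on the ISM1/ISM2 arrays and 7.06 to 9.19 on all others. Junb, also among the genes called lower, was detected on 2 oviduct arrays and on 0 arrays of each other group. It was thus tested only through the group where it is high, and its bound in ISM1/ISM2 was at least 1.05-fold.

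Downstream, the amino acid transporters were the one list in which all tested members passed in both comparisons. Lower were 6 of 6 in ISM1/ISM2 (median -3.73) and 6 of 6 in HTF/MultiBlast (median -1.51), beside 11.5% and 2.68% of all units. In HTF/MultiBlast 3 of the 6 passed without its replicate 1, without its replicate 3 or with only the 2 groups fitted, and 4 without oviduct replicate 3. Slc7a3, a carrier of cationic amino acids, read 11.39, 11.62 and 11.72 on the oviduct arrays, 8.49, 9.48 and 8.33 on the HTF/MultiBlast arrays and 4.65, 5.23 and 4.77 on the ISM1/ISM2 arrays, where it was detected on 0 of 3. It was at least 73.6-fold lower in ISM1/ISM2 than in oviduct (adjusted p = 2.61e-08 in limma) and lower in HTF/MultiBlast by -2.81 ± 0.28 on the log2 scale (adjusted p = 0.000237). Slc1a4, a carrier of neutral amino acids, differed by -4.19 ± 0.28 in ISM1/ISM2 (adjusted p = 7.61e-07 in limma), and the glycine transporter gene Slc6a9 by -2.16 ± 0.43 in HTF/MultiBlast (adjusted p = 0.0112). The 3 transporters left untested, Slc7a11, Slc1a5 and Slc7a1, were detected on fewer than 2 arrays.

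Of 20 tested enzymes of amino acid, one-carbon and aminoacyl-tRNA synthesis, 17 were lower in ISM1/ISM2 and 6 in HTF/MultiBlast. The shares of all units that were lower were 11.5% and 2.68%. Eprs, among the 17, was detected on 2 oviduct arrays, 1 KSOM(aa) array and 0 arrays of each other group. It would not have been tested without the oviduct arrays, and its bound in ISM1/ISM2 was at least 1.33-fold. Aldh18a1, which starts proline synthesis, differed from oviduct by -3.32 ± 0.37 in ISM1/ISM2 (adjusted p = 3.94e-05 in limma) and by -1.37 ± 0.37 in HTF/MultiBlast (adjusted p = 0.044). Mthfd2, a mitochondrial enzyme of the folate cycle, differed by -2.97 ± 0.28 in ISM1/ISM2 (adjusted p = 1.11e-05) and Lars by -1.17 ± 0.28 in HTF/MultiBlast (adjusted p = 0.0302). Of 11 other targets, 5 were lower and 1 higher in ISM1/ISM2, beside 11.5% and 14.3% of all units. In HTF/MultiBlast 1 was lower, beside 2.68% of all units. Herpud1 was lower in both (-2.93 ± 0.21, adjusted p = 1.6e-06, and -0.9 ± 0.21, adjusted p = 0.0264, in limma) and its second probe gave -3.18 and -1.06. Vegfa, the vascular growth factor, was lower by -3.56 ± 0.46 in ISM1/ISM2 (adjusted p = 0.000112), with -1.27 on its second probe. Tnfrsf10b, a death receptor that CHOP is known to induce in human cells, was the 1 gene that was higher, by 1.81 ± 0.23 in ISM1/ISM2 (adjusted p = 8.9e-05), and its other 3 probes gave 1, 1.81 and 0.73.

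**Figure D4:**
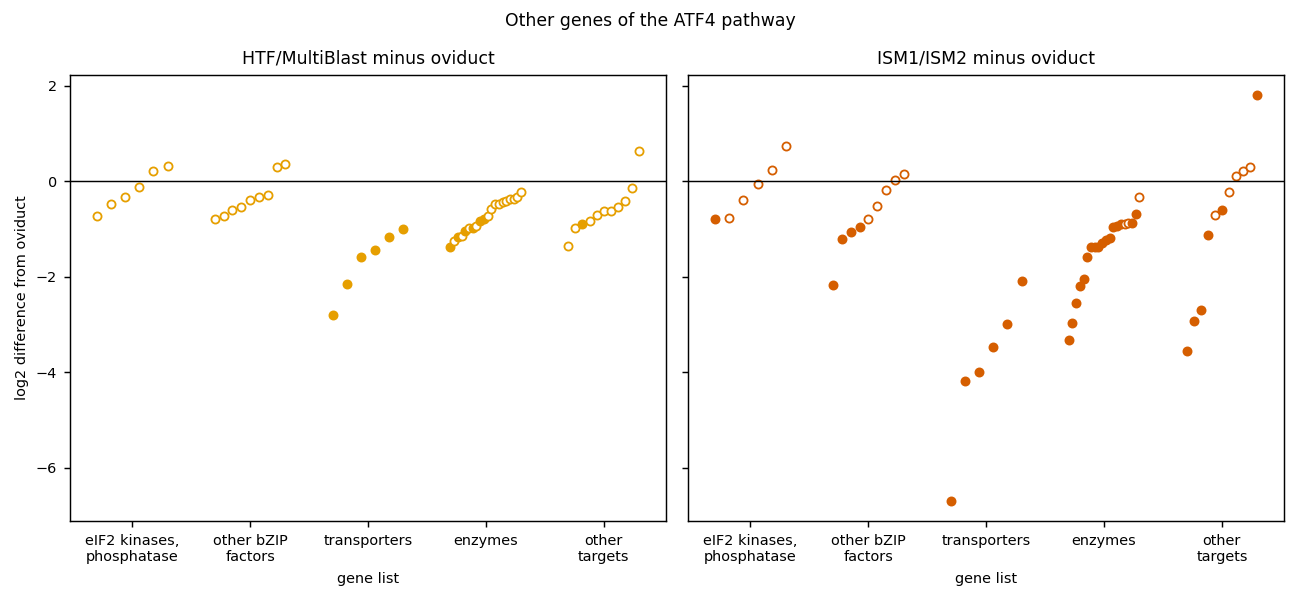
Log2 difference from oviduct (y axis) for the 52 tested genes of 5 other ATF4 pathway lists (x axis; genes sorted within each list), in HTF/MultiBlast at left and ISM1/ISM2 at right. Filled points passed an adjusted p of 0.05; all 6 transporters are filled in both panels, and Tnfrsf10b at 1.81 is the 1 filled point above 0.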

How the data were processed

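Total RNA (150 ng input) was amplified, biotin-labelled and hybridised, per the labels' protocols. The deposited intensity of each probe came with a detection p-value computed by the authors' software, and the submitters' processing notes name BeadStudio 3.2, lumi and RMA. The authors' deposited log2 values of the same arrays (median 2.89 per array; rank correlation with the intensities of the same array 1 on each) served as an alternative. Intensities were background corrected with neqc (offset 16, control parameters inferred from detection p-values), quantile normalised and fitted in limma 3.58.1 (R 4.3.3) over 5 groups with Benjamini-Hochberg adjustment over 8669 units; the fit was tested on simulated data. A fold change understates differences of dim probes. A bound of at least N-fold uses, on each array without detection, the higher of the lowest detected level and the measured one. Such a bound concerns group means and leaves out the spread between arrays.

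The 10 genes and all lists were chosen with earlier results of these data known. Named from each list were at most 2 genes per direction and comparison with oviduct, the largest differences among called genes whose arrays did not overlap; the partners most alike were named by Pearson's r. Symbols came from the platform annotation: 23978 probes had 1 symbol and 1719 had none or more than 1, and these were treated as having none. A comparison of protein sequences was not made. The alternatives were the authors' values, scaling, offset, detection filters, single probes, array weights, a replicate block, fits of 2 groups and leaving out each array. The number of arrays limits the precision: for 3 against 3 arrays a log2 difference had a median SE of 0.256, and of 0.286 where KSOM(aa) was involved.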

Additional observations from a re-analysis of the deposited data

How the results depend on the processing

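No called difference of the 10 genes changed sign under any alternative. With probes detected on all 14 arrays, which left 3 of the 10 genes to test, the calls were 3 for ISM1/ISM2 and 1 for HTF/MultiBlast against oviduct, 2 for ISM1/ISM2 against KSOM(aa), 2 against the control, and 1 each for HTF/MultiBlast against ISM1/ISM2 and the control. Of all 5883 units under that filter, 1042 were called for ISM1/ISM2 against the control. For HTF/MultiBlast 447 were called against ISM1/ISM2 and 143 against the control. No count of all units is given for the other comparisons, and nothing is read from these calls. Array weights gave 2 for the control against oviduct, 5 for HTF/MultiBlast against ISM1/ISM2 and 6 against the control, a count that was also 6 when only those 2 groups were fitted; the cause was not tested. Pathway genes called in HTF/MultiBlast numbered 23 with array weights, 8 without a detection filter and 4 with 2 groups fitted, and in the control 2 with array weights.

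Leaving out 1 array gave 6 to 7 genes of the 8 for ISM1/ISM2 and 4 to 6 for HTF/MultiBlast against oviduct, 0 to 2 for KSOM(aa) and 0 to 1 for the control. The ranges were 4 to 6 for ISM1/ISM2 against KSOM(aa), 6 to 7 against the control, 2 to 3 for HTF/MultiBlast against ISM1/ISM2, 0 to 1 against KSOM(aa) and 1 to 5 against the control. Other pathway genes called numbered 28 to 35, 4 to 15, 0 to 3 and 0 to 1 against oviduct. A KSOM(aa) array left alone was assumed to vary like the other groups. The Atf4 difference of KSOM(aa) from oviduct was -1.82 without replicate 2 and 0.28 without replicate 1, and that of Atf5 -1.7 and 0.09.

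Over all units, leaving out 1 array gave 1561 to 2575 calls for ISM1/ISM2 (2237 in full), 174 to 819 for HTF/MultiBlast (536), 6 to 286 for KSOM(aa) (22) and 1 to 174 for the control (37) against oviduct; 279 to 787 for HTF/MultiBlast against ISM1/ISM2 (618), 3 to 165 against KSOM(aa) (23) and 45 to 298 against the control (202); 601 to 1262 for ISM1/ISM2 against KSOM(aa) (1006) and 926 to 1729 against the control (1455); and 0 to 124 for KSOM(aa) against the control (0). Array weights gave 2764, 993 and 490 for ISM1/ISM2, HTF/MultiBlast and the control against oviduct, and 1561, 1409 and 2828 for HTF/MultiBlast against ISM1/ISM2, HTF/MultiBlast against the control and ISM1/ISM2 against the control. Fits of 2 groups gave 1456, 259, 0 and 3 against oviduct and 263 for ISM1/ISM2 against KSOM(aa), so the shares of units beside the counts move with the setting. With the replicate block, 7 and 5 of the 8 genes were called in ISM1/ISM2 and HTF/MultiBlast against oviduct and 4 in HTF/MultiBlast against the control, where Stc2 was added. No count of all units is given for that setting, so nothing is read from these calls. Same-numbered arrays of different groups correlated, as deviations from their group means, at -0.358 to 0.427 (median 0.026), with 8 of 26 pairs over 0.1. Differently numbered arrays correlated at -0.427 to 0.358 (median -0.012), with 14 of 52 pairs over 0.1. Deviations from a mean of 2 or 3 arrays are tied to each other, so these values cannot decide whether the numbers pair the arrays.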

Other observations

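Beside the ATF4 arm, the ATF6 and XBP1 arms of the unfolded protein response had 2 of 9 tested genes lower and 0 higher in ISM1/ISM2 against oviduct. Of all units 11.5% were lower and 14.3% higher there. The median difference in ISM1/ISM2 was -0.73 for the 9 genes and 0.02 for all units. In HTF/MultiBlast, KSOM(aa) and the control 0 of the 9 were called. At an unadjusted p under 0.05 ISM1/ISM2, HTF/MultiBlast, KSOM(aa) and the control gave 6, 3, 0 and 2 of the 9. Of all 8669 units 3289, 1968, 1086 and 1476 passed that level. In ISM1/ISM2 Hspa5, the main chaperone of the endoplasmic reticulum, differed from oviduct by -1 ± 0.29 (SE, adjusted p = 0.0217 in limma). Hsp90b1, of the same list, differed by -0.82 ± 0.19 (adjusted p = 0.00709). Of 6 tested genes linked to p53, 2 were higher in ISM1/ISM2 and 0 lower, beside the same 14.3% and 11.5% of units. In the other 3 groups 0 were called. At an unadjusted p under 0.05 the 4 groups gave 2, 1, 1 and 0 of the 6, in the same order and beside the same counts of units. The 2 called genes were Sesn1, a paralogue of Sesn2 induced by p53 (0.96 ± 0.23, adjusted p = 0.0092 in limma), and the cyclin gene Ccng1 (0.95 ± 0.22, adjusted p = 0.00739). The other 2 probes of Ccng1 gave 1.07 and 1.06. Both lists were written with earlier results of these arrays known.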
